A study of Mus musculus with 18 samples.

Results

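Sox9, Sox4, Onecut1, Onecut2, Ehf, Elf3, Grhl2 and Klf5 are transcription factors of bile duct cells, and their RNA was followed across mouse liver tumors and a tumor cell line. The 8 genes were chosen by name, as factors known from the bile duct epithelium, with earlier results of these data known. All 8 were among the 43346 genes of the tumor table, and all 8 were among the 18318 genes that passed the filter on low counts.

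The 12 tumors were nodules from 2 mouse models, with 3 tumors in each of 4 groups. All 12 carried myr-AKT, a membrane-bound active form of AKT, together with a form of YAP, the transcriptional coactivator of the Hippo pathway. YAP-SY tumors carried YAP S127A/Y357F, in which a tyrosine is changed as well, and YAP-S tumors carried YAP S127A, a form that escapes the main inhibitory phosphorylation. By label, YAP-SY tumors 1, 6 and 8 and YAP-S tumors 3, 4 and 5 were CCA (cholangiocarcinoma), and YAP-SY tumors 3, 5 and 9 and YAP-S tumors 2, 7 and 9 were mixed tumors. The labels give no strain, age, sex, transgene promoter or time of collection, and do not say how many animals the nodules came from, so the p-values below measure the spread between these nodules. SB1, with 3 samples, is a cell line whose genotype label is that of YAP-S CCA. It is a single line, so its samples show the spread within that line. The 3 samples of SY1 cells were not analysed here. Tumor libraries held 30656499 to 130035221 counts and SB1 libraries 25341968 to 30541185 counts. Levels are given as counts per 1000000 (CPM) on scaled libraries, in which 1 count was worth 0.00778 to 0.0333 CPM in a tumor.

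In the embryonic liver, hepatocytes and bile duct cells arise from common precursors, the hepatoblasts. Sox9 marks the first cells of the forming ducts, where it acts together with Sox4, and Onecut1 and Onecut2 are needed for ducts to form correctly. Ehf and Elf3 are ETS factors of simple epithelia, Grhl2 controls junction genes of duct epithelium, and Klf5 takes part in the remodelling of ducts after cholestatic injury in mice.

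The 8 factors did not move as a block. In CCA tumors, Sox9, Sox4, Ehf and Elf3 were lower in YAP-SY than in YAP-S, by 2.04 to 5.67 fold. Klf5, Grhl2, Onecut1 and Onecut2 did not pass the test there, and Klf5 and Grhl2 were scarce in tumors. In mixed tumors no factor passed the test. Markers of bile duct cells, hepatocytes and fibroblasts moved along with the CCA difference, as given below.

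**Figure D1:**
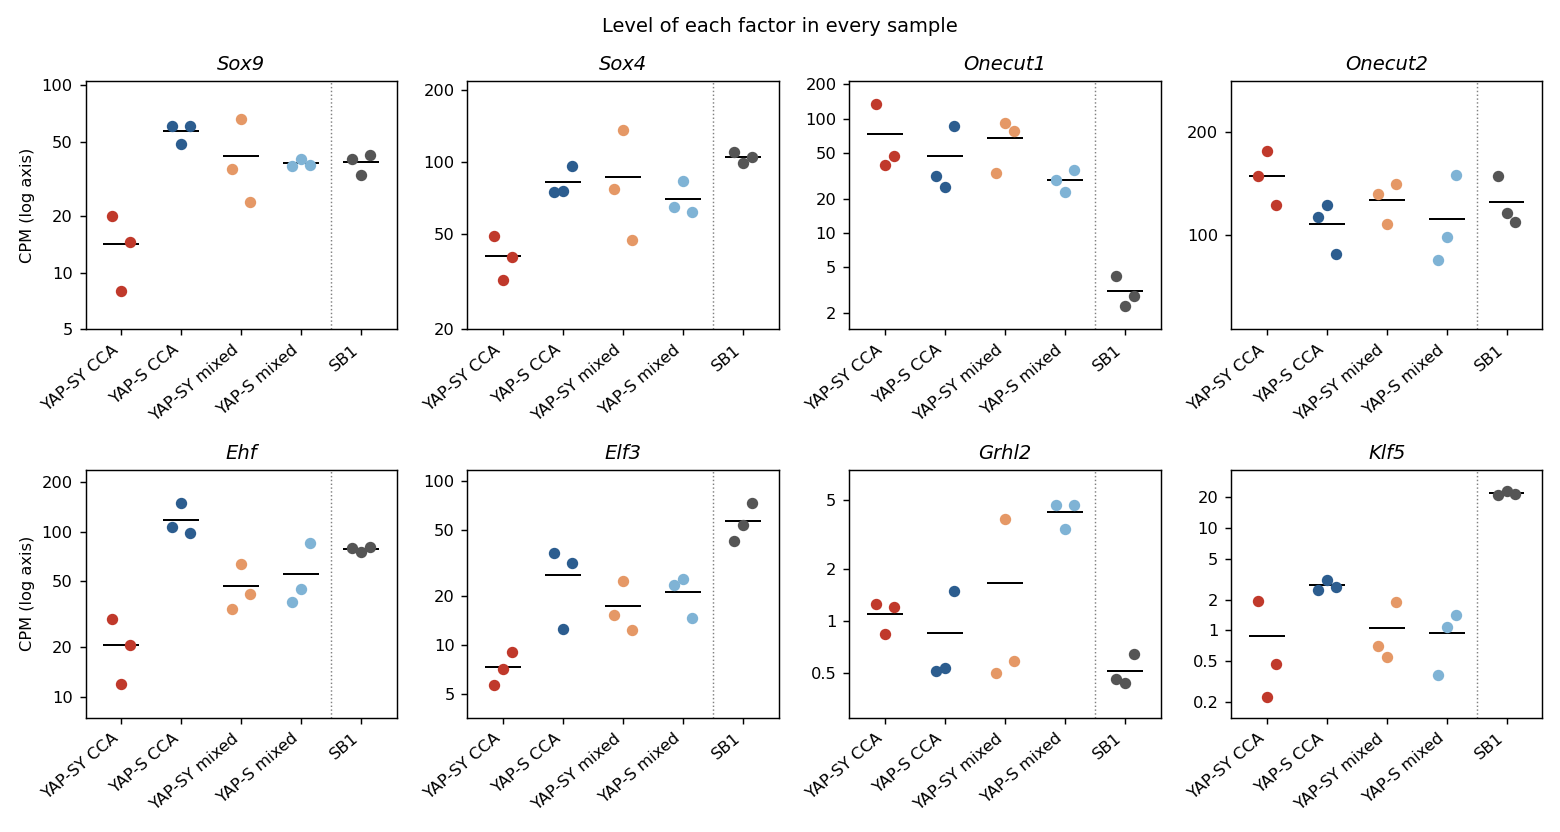
Level of each factor in every sample, in CPM on a log axis that differs between panels; points are samples, bars are group means, and the dotted line sets apart SB1, which comes from another table. The 3 YAP-SY CCA tumors had the 3 lowest tumor values for Sox9 (7.99 to 19.98 CPM), Ehf (11.9 to 29.6 CPM) and Elf3 (5.71 to 9.01 CPM), while for Onecut1 the tumor groups overlap and SB1 is lowest (2.31 to 4.22 CPM).

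Sox9 (ENSMUSG00000000567, mm10 chromosome 11, 112782224 to 112787760) encodes the HMG-box factor that marks duct cells. It was at 19.98, 7.99 and 14.7 CPM in the YAP-SY CCA tumors 1, 6 and 8, against 60.8, 48.8 and 60.9 CPM in the YAP-S CCA tumors 3, 4 and 5. No YAP-SY CCA tumor reached the lowest YAP-S CCA tumor. The fitted difference was -1.997 ± 0.35 on the log2 scale (SE), a 3.99-fold lower level, with an adjusted p of 0.00112 by the quasi-likelihood test of edgeR, adjusted after Benjamini and Hochberg over all tested genes.

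Sox4 (ENSMUSG00000076431, chromosome 13, 28948919 to 28953713), another HMG-box factor, was at 48.8, 31.8 and 39.7 CPM in the same YAP-SY CCA tumors, against 74.9, 75.1 and 95.6 CPM in the YAP-S CCA tumors. These groups also did not overlap, but the gap was narrower. Sox4 was 2.04-fold lower in YAP-SY, with a log2 fold change of -1.03 ± 0.31 and an adjusted p of 0.0182 (edgeR). This call ended without YAP-SY CCA tumor 6, at -0.89 with an adjusted p of 0.0732, and without YAP-S CCA tumor 5, at -0.91 with an adjusted p of 0.0606 (edgeR). It also ended, at -1.02 with an adjusted p of 0.0558 (edgeR), without the YAP-SY tumors 3 and 8, whose library names carry a different prefix from the other YAP-SY tumors.

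Ehf (ENSMUSG00000012350, chromosome 2, 103263433 to 103303278) had the lowest fitted fold change of the 8. It was at 29.6, 11.9 and 20.7 CPM in the YAP-SY CCA tumors and at 106, 148 and 98.5 CPM in the YAP-S CCA tumors. The highest YAP-SY CCA tumor was well under the lowest YAP-S CCA tumor, and the 3 YAP-S CCA tumors had the 3 highest Ehf values of all 12 tumors. The level was 5.67-fold lower in YAP-SY, with a log2 fold change of -2.50 ± 0.38 and an adjusted p of 0.000465 (edgeR).

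Elf3 (ENSMUSG00000003051, chromosome 1, 135253575 to 135258568), also an ETS factor, was at 5.71, 7.16 and 9.01 CPM in the YAP-SY CCA tumors, against 36.2, 12.4 and 31.7 CPM in the YAP-S CCA tumors. The groups did not overlap, with YAP-S CCA tumor 4 nearest to the YAP-SY values. Elf3 was 3.67-fold lower in YAP-SY, with a log2 fold change of -1.88 ± 0.38 and an adjusted p of 0.00255 (edgeR).

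Klf5 (ENSMUSG00000005148, chromosome 14, 99298691 to 99313405), a zinc finger factor, was scarce in tumors, with 8 to 270 counts per library. Its level was 1.95, 0.224 and 0.473 CPM in the YAP-SY CCA tumors, against 2.49, 3.14 and 2.64 CPM in the YAP-S CCA tumors. The groups did not overlap, yet YAP-SY CCA tumor 1 lay near the YAP-S tumors and far above YAP-SY CCA tumors 6 and 8. The log2 fold change was -1.63 ± 0.71, which did not pass the test (adjusted p = 0.0858, edgeR). Without YAP-SY CCA tumor 1 it was -2.98 with an adjusted p of 0.00735 (edgeR). Klf5 also passed with libraries scaled by size alone (-2.17, adjusted p = 0.0273, edgeR) and in DESeq2 (-1.62, adjusted p = 0.0465).

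Onecut1 and Onecut2 behaved differently from the HMG-box and ETS factors. Onecut1 (ENSMUSG00000043013, chromosome 9, 74861921 to 74891781), also called HNF6 and also active in hepatocytes, was at 133, 39.0 and 47.0 CPM in the YAP-SY CCA tumors, against 31.6, 25.5 and 85.7 CPM in the YAP-S CCA tumors. The groups overlapped, with 1 high tumor in each. The log2 fold change was 0.62 ± 0.53 (adjusted p = 0.375, edgeR), and without YAP-SY CCA tumor 1 it was -0.14.

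Onecut2 (ENSMUSG00000045991, chromosome 18, 64340364 to 64398488), a cut-homeobox factor like Onecut1, was at 149, 177 and 123 CPM in the YAP-SY CCA tumors, against 113, 122 and 88.1 CPM in the YAP-S CCA tumors. The lowest YAP-SY tumor was just above the highest YAP-S tumor. The log2 fold change of 0.47 ± 0.22 did not pass the test (adjusted p = 0.105, edgeR), and it was -0.09 where libraries were scaled by their size alone, a scaling that moved the median of all genes to -0.57 in this comparison.

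Grhl2 (ENSMUSG00000022286, chromosome 15, 37233036 to 37363569) was scarce in CCA tumors, with 30 to 64 counts per library. Its level was 1.25, 0.839 and 1.196 CPM in the YAP-SY CCA tumors, against 0.515, 0.535 and 1.498 CPM in the YAP-S CCA tumors. YAP-S CCA tumor 5 was the highest of the 6 and the groups overlapped. The log2 fold change was 0.40 ± 0.69 (adjusted p = 0.675, edgeR), with the sign turned, to -0.19, by scaling on library size alone.

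In all, 4 of the 8 factors were called lower and 0 higher in YAP-SY than in YAP-S CCA tumors, in a comparison in which 20.8% of all tested genes were called lower and 18.3% higher. For 5 factors all YAP-SY CCA tumors were below all YAP-S CCA tumors, as for 28.3% of all tested genes, and for 1, Onecut2, all were above, as for 24.3%. The median log2 fold change of the 8 factors was -1.33, beside -0.00112 over all tested genes. The Onecut1 and Grhl2 groups overlapped.

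**Figure D2:**
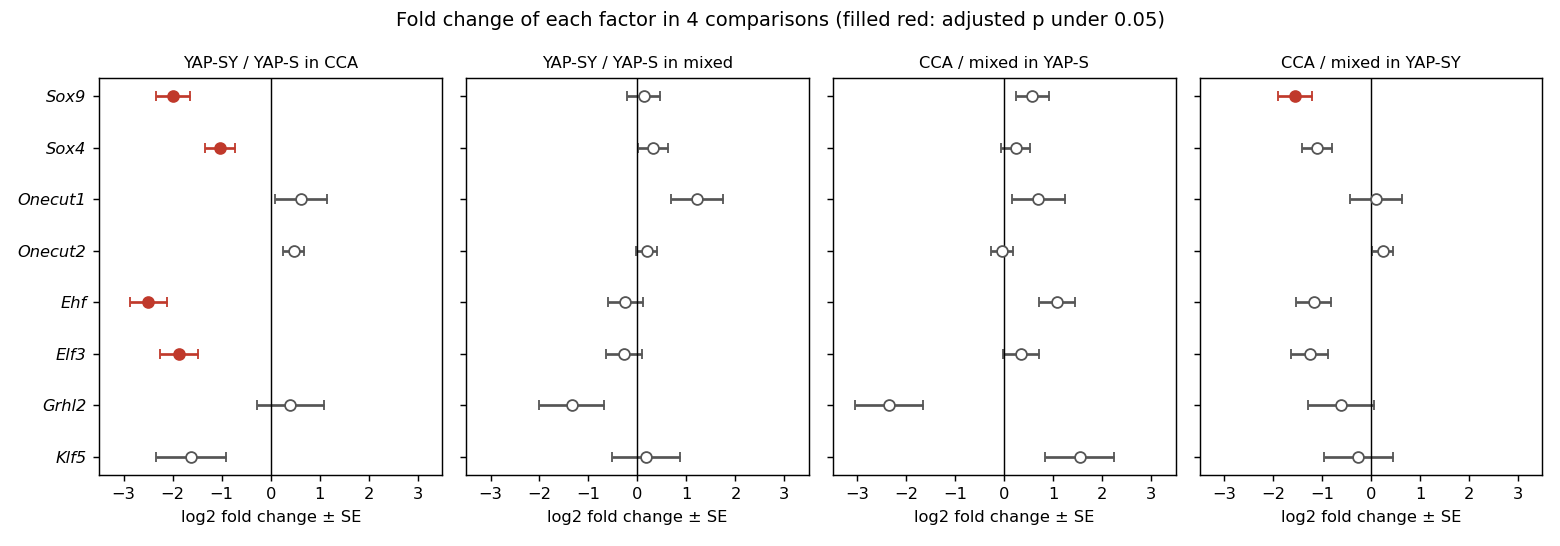
Fitted log2 fold change of each factor with its SE in 4 comparisons; filled red points have an adjusted p under 0.05 in edgeR's quasi-likelihood test. In CCA tumors Sox9, Sox4, Ehf and Elf3 were lower in YAP-SY (-2.50 to -1.03), in mixed tumors no point is filled, and between CCA and mixed tumors Sox9 is filled in YAP-SY only.

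The RefSeq promoter table (GRCm38.p6) held a window from 250 bases before to 50 bases after the transcription start for 3 of the 8 factors. They are shown because no window was found for the other factors. Sox4 and Elf3 were called lower in YAP-SY CCA tumors, and Onecut1 was not. YAP acts through TEAD proteins, which bind GGAATG. Capitals mark GGAATG or its reverse complement CATTCC, which contain the GGAA or TTCC core of ETS sites as well. The windows are chr13:28953650-28953949 (minus strand) for Sox4, chr1:135258423-135258722 (minus strand) for Elf3 and chr9:74861671-74861970 (plus strand) for Onecut1.
Sox4: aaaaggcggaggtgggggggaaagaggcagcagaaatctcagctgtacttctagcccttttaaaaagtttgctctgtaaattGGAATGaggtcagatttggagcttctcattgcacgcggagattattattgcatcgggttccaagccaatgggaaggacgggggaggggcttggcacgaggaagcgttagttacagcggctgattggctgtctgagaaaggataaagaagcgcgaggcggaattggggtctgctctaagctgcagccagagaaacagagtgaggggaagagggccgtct
Elf3: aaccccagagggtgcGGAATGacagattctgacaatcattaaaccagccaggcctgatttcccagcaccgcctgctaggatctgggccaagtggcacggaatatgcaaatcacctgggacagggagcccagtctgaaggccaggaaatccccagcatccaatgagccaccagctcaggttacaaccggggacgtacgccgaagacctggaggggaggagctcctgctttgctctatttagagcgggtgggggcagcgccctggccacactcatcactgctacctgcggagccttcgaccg
Onecut1: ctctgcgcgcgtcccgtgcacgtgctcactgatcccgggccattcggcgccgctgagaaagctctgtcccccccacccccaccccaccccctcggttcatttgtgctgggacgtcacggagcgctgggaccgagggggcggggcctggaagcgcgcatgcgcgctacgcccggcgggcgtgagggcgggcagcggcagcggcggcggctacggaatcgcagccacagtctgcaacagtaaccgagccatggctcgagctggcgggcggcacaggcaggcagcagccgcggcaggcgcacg
The Sox4 window held 1 such match, 168 bases before the start, and the Elf3 window 1, 235 bases before the start, while the Onecut1 window held 0. Of all 32851 mouse promoter windows in the table, 14.7% held a match. The letters TGGGAA or TTCCCA, the core that the Notch effector RBPJ binds, occurred once in the Sox4 window and once in the Elf3 window, 100 and 192 bases before the start, and in 25.6% of all windows. Onecut1 had 0 of these too. GC content was 52% for Sox4, 59% for Elf3 and 73% for Onecut1. A match of letters is no evidence of binding, and its absence says only that these letters are not in the window.

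In the mixed tumors, Sox9 was at 35.6, 65.8 and 23.9 CPM in YAP-SY, against 36.9, 40.3 and 37.7 CPM in YAP-S. The YAP-SY values lay on both sides of the narrow YAP-S range. Sox4 was at 76.8, 136 and 46.8 CPM in the YAP-SY mixed tumors, against 64.5, 82.6 and 61.5 CPM in the YAP-S mixed tumors. The Sox4 value of YAP-SY mixed tumor 3 lay within the YAP-S range, with tumor 5 above it and tumor 9 below. For both genes YAP-SY mixed tumor 5 was the highest of all 12 tumors. Their log2 fold changes were 0.12 ± 0.34 and 0.31 ± 0.30.

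Ehf was at 34.2, 63.9 and 42.03 CPM in the YAP-SY mixed tumors, against 37.6, 44.8 and 85.0 CPM in the YAP-S mixed tumors. Elf3 was at 15.1, 24.7 and 12.3 CPM in the YAP-SY mixed tumors, against 23.1, 25.4 and 14.6 CPM in the YAP-S mixed tumors. Both ETS factors overlapped broadly, with log2 fold changes of -0.25 ± 0.36 for Ehf and -0.28 ± 0.37 for Elf3. Klf5 was at 0.698, 0.557 and 1.88 CPM in the YAP-SY mixed tumors, against 0.363, 1.08 and 1.42 CPM in the YAP-S mixed tumors, and overlapped as well.

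Onecut1 was at 33.4, 91.9 and 78.6 CPM in the YAP-SY mixed tumors, against 29.0, 23.1 and 35.8 CPM in the YAP-S mixed tumors. YAP-SY tumors 5 and 9 were above every YAP-S mixed tumor, while tumor 3 lay within their range. The log2 fold change was 1.22 ± 0.54, with an adjusted p of 0.999 (edgeR). Onecut2 was at 131, 107 and 141 CPM in the YAP-SY mixed tumors, against 84.6, 98.6 and 150.1 CPM in the YAP-S mixed tumors, which overlapped.

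Grhl2 split the mixed tumors unevenly. It was at 0.499, 3.90 and 0.584 CPM in the YAP-SY mixed tumors, against 4.68, 3.397 and 4.69 CPM in the YAP-S mixed tumors. YAP-SY mixed tumor 5 thus lay with the YAP-S mixed tumors, and YAP-SY mixed tumors 3 and 9 lay with the CCA tumors. Across the 12 tumors, these 4 tumors held 3.397 to 4.69 CPM and the other 8 held 0.499 to 1.498 CPM, with 15 to 273 counts per library. The fitted log2 fold change between YAP-SY and YAP-S mixed tumors was -1.34 ± 0.67 (adjusted p = 0.999, edgeR). It was -2.95 (adjusted p = 0.851, edgeR) without YAP-SY mixed tumor 5, and -0.92 and -0.94 without YAP-SY mixed tumors 9 and 3.

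None of the 8 factors was called between YAP-SY and YAP-S mixed tumors, where edgeR called 0% of all tested genes, and no factor had groups that did not overlap, beside 8.35% of all tested genes. At an unadjusted p under 0.05 edgeR counted 551 genes, and DESeq2 called 11 genes. The median log2 fold change of the factors was 0.15, beside 0.02 over all tested genes.

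Whether the YAP-SY effect differed between the histologies was tested by an interaction term. For Sox9 the effect in CCA minus that in mixed tumors was -2.12 ± 0.48 on the log2 scale (adjusted p = 0.0154, edgeR). For Ehf it was -2.25 ± 0.51 (adjusted p = 0.0152, edgeR). These 2 factors were called lower, in a test that called 10.2% of all tested genes lower. Both calls held in every alternative run, at -2.65 to -1.63 for Sox9 and -2.77 to -1.83 for Ehf. The same test called 6 of 17 bile duct cell markers lower and 0 higher, with a median of -1.56. It called 8 of 14 fibroblast markers lower and 0 higher, and 7 of 15 hepatocyte markers higher and 0 lower. The part of these marker shifts in the Sox9 and Ehf differences was not tested.

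Sox4, at -1.34 ± 0.43 (adjusted p = 0.0523, edgeR), and Elf3, at -1.60 ± 0.53 (adjusted p = 0.058, edgeR), missed the threshold narrowly. Both passed with libraries scaled by size alone, in DESeq2, and without a filter on low counts. Sox4 also passed without YAP-SY CCA tumor 1, and both passed without YAP-SY mixed tumor 9, at -1.64 for Sox4 and -1.80 for Elf3. Elf3 passed without YAP-S CCA tumor 4 too, at -1.94. Grhl2 was at 1.74 ± 0.96 (adjusted p = 0.232, edgeR), and at 3.36 with an adjusted p of 0.0107 (edgeR) without YAP-SY mixed tumor 5. The difference was -1.80 ± 0.99 for Klf5, -0.60 ± 0.75 for Onecut1 and 0.28 ± 0.31 for Onecut2, none of which passed. Klf5 did pass without YAP-SY CCA tumor 1, and ranged from -3.16 to -1.02 with 1 tumor left out.

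**Figure D3:**
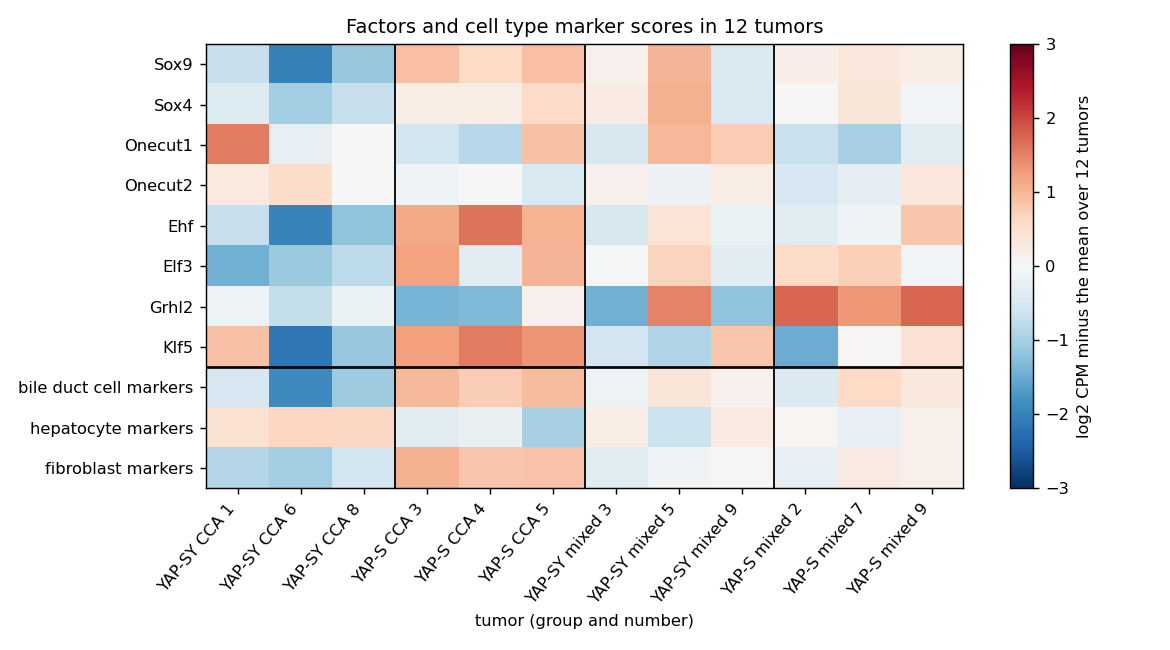
Log2 CPM of each factor, and mean log2 CPM of 3 cell type marker lists, in the 12 tumors, each row minus its own mean over the tumors; red is above that mean and blue below. Sox9, Ehf and the bile duct cell markers are blue in all 3 YAP-SY CCA tumors, with tumor 6 lowest (-2.02 for Sox9 and -2.01 for Ehf), and Grhl2 is red in YAP-SY mixed tumor 5 and the YAP-S mixed tumors.

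Histology was also compared within each model. In YAP-SY tumors Sox9 was lower in CCA, at 14.2 ± 6.01 CPM, than in mixed tumors, at 41.8 ± 21.6 CPM (SD, n = 3 each), without overlap. The log2 fold change was -1.55 ± 0.35 (adjusted p = 0.0391, edgeR). This 1 factor was called lower, where 2.7% of all tested genes were, and the call ended without any 1 of YAP-SY CCA tumors 1, 6 and 8, at -1.88, -1.27 and -1.58. It ended as well, at -1.06, without YAP-SY mixed tumor 5, where adjusted p was 0.138 (edgeR). With the YAP-SY tumors alone in edgeR the adjusted p was 0.182.

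Sox9, Ehf and Elf3 were lower in every YAP-SY CCA tumor than in every YAP-SY mixed tumor, as were 12.1% of all tested genes. Ehf differed by -1.17 ± 0.36 (adjusted p = 0.095) and Elf3 by -1.25 ± 0.38 (adjusted p = 0.088) in edgeR, and Sox4 by -1.11 ± 0.31 (adjusted p = 0.0681) with overlap. The other 4 factors had log2 fold changes of -0.62 ± 0.68 for Grhl2, -0.26 ± 0.70 for Klf5, 0.10 ± 0.53 for Onecut1 and 0.24 ± 0.22 for Onecut2.

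In YAP-S tumors the order was the other way round for Ehf, at 118 ± 26.7 CPM in CCA and 55.8 ± 25.6 CPM in mixed tumors (SD, n = 3 each). No factor was called, where edgeR called 0% of all tested genes, with 3636 genes at an unadjusted p under 0.05 and 1513 called by DESeq2. Ehf, Sox9 and Klf5 were higher in every CCA than in every mixed tumor, as were 20.2% of all tested genes, with log2 fold changes of 1.08 ± 0.36, 0.57 ± 0.34 and 1.54 ± 0.70. Grhl2 was lower in every CCA tumor, as were 17.6% of all tested genes, at 0.849 ± 0.562 CPM in CCA against 4.26 ± 0.746 CPM in mixed tumors. Its log2 fold change of -2.36 ± 0.70 had an adjusted p of 0.0974 (edgeR). With the YAP-S tumors alone the adjusted p of Grhl2 was 0.0216 in edgeR.

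**Figure D4:**
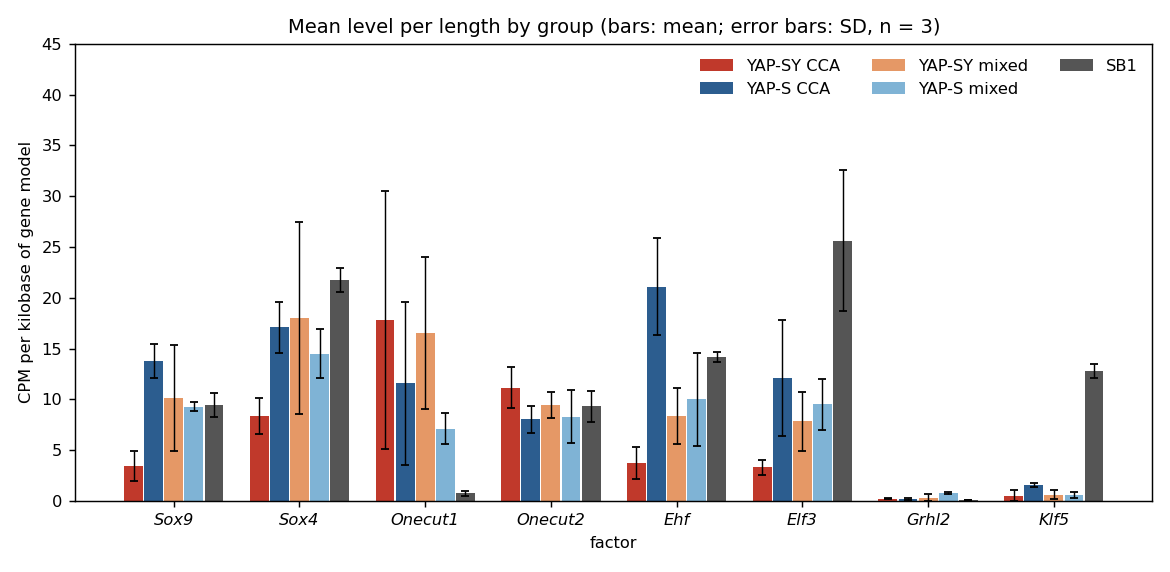
Mean level of each factor in CPM per kilobase of the deposited gene length, by group, with error bars for the SD of 3 samples; SB1 is from a separate table. Grhl2 is at 0.77 CPM per kilobase or less in every group. Klf5, Elf3 and Sox4 have their highest means in SB1, at 12.8, 25.6 and 21.8 CPM per kilobase.

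Levels of different factors were compared per kilobase of gene length. In YAP-SY CCA tumors the highest mean levels were those of Onecut1, at 17.8 ± 12.7 CPM per kilobase, and Onecut2, at 11.1 ± 2.02. The Onecut1 mean rested on tumor 1, at 32.4 CPM per kilobase, while tumors 6 and 8 were at 9.49 and 11.4, within the Onecut2 range of 9.15 to 13.2, so these 2 factors did not differ in order beyond their spread. Sox4 followed at 8.36 ± 1.77, with an SD that overlapped that of Onecut2. Ehf, Sox9 and Elf3 came next, at 3.72, 3.44 and 3.29, and did not differ beyond their spread. In YAP-S CCA tumors Ehf had the highest mean, at 21.1 ± 4.80 CPM per kilobase, followed by Sox4 at 17.1 ± 2.49 and Sox9 at 13.7 ± 1.68. Elf3 and Onecut1, at 12.1 and 11.6, lay within each other's spread, and Onecut2 was at 8.04. The SDs of factors next to each other in this order overlapped. In YAP-S CCA tumor 5, Sox4 at 19.9 was above Ehf at 17.7. Sox4 at 18.0 and Onecut1 at 16.5 led in YAP-SY mixed tumors, and Sox4 at 14.5 and Ehf at 10.01 in YAP-S mixed tumors, with SDs that overlapped. Grhl2 and Klf5 were the lowest in every tumor group, at 0.15 to 0.77 and at 0.512 to 1.604 CPM per kilobase. The gene lengths in the deposited table were shorter than the exons of GENCODE M21 for Klf5, with 1721 against 5201 bases, Grhl2, with 5506 against 8613 bases, and Onecut2, with 13391 against 16234 bases, and the levels of these 3 per kilobase depend on that.

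The SB1 line was read from a separate table, so its levels are set beside those of tumors without a test. Klf5 was at 21.1, 23.3 and 21.6 CPM in SB1 samples, against 0.224 to 3.14 CPM over all tumors. Onecut1 was at 4.22, 2.31 and 2.83 CPM in SB1 samples, against 23.1 to 133 CPM over all tumors. Neither range overlapped, and the 2 genes stood apart in opposite directions.

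Elf3 was at 43.1, 53.9 and 73.5 CPM in SB1, above every tumor, of which the highest was at 36.2 CPM. Grhl2 was at 0.458, 0.438 and 0.642 CPM in SB1, with 11 to 17 counts. Sox9 averaged 38.9 ± 4.86, Sox4 104 ± 5.72, Ehf 78.8 ± 2.72 and Onecut2 125 ± 20.9 CPM in SB1 (SD, n = 3), all within the range of single tumors. The bile duct keratins Krt19 and Krt7 were at 1428 and 226 CPM in SB1, the adhesion molecule Epcam at 0.236 CPM, and the duct markers Cldn7 and Sctr at 0. Hepatocyte markers summed to 730 to 1258 CPM in SB1, of which Alb averaged 780 and Fgb 79.1 CPM, and each of the other 13 averaged 21.0 CPM or less.

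The Onecut1 count carries an uncertainty of its own. In GENCODE M21 its exons share 2171 bases on the same strand with Gm20649, a long noncoding RNA. That is 79.2% of the 2740 exon bases of Gm20649. The Gm20649 count was 62.7% to 84.4% of the Onecut1 count in each of the 15 samples. Reads from the shared bases cannot be assigned to either gene, and how the authors treated them is not given in the sources used here. Among the other factors, Sox4 shares bases with Gm26735 (0 to 35 counts in tumors), Elf3 with Gm26642 (0 to 1) and Grhl2 with Gm16136 (5 to 32), all on the opposite strand. Sox4 covers 2616 bases, or 98.8%, of the Gm26735 exons, and itself held 1138 to 9511 counts in tumors. The counting was not stated to use strand, and whether it kept the reads of each pair apart was not tested.

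**Figure D5:**
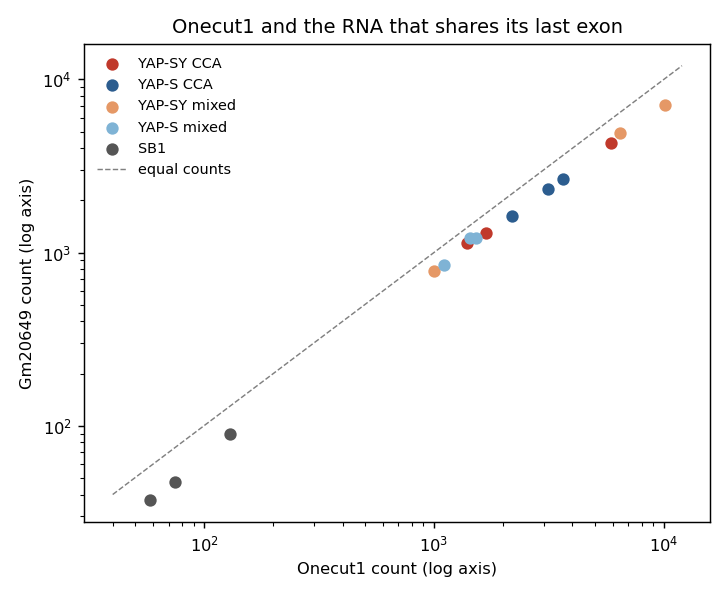
Deposited count of Gm20649 against that of Onecut1 in 12 tumors and 3 SB1 samples, both on log axes, with a dashed line at equal counts. All points lie just below the line, at 62.7% to 84.4% of the Onecut1 count, whatever the group.

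Cell type markers moved with the CCA difference. In bulk tissue, fewer cells of a type and less RNA per cell cannot be told apart. Of 17 bile duct cell markers, 13 were lower and 0 higher in YAP-SY than in YAP-S CCA tumors, with a median log2 fold change of -1.88. Of all tested genes, 20.8% were lower and 18.3% higher in this comparison. The bile duct cell markers summed to 3178 to 4613 CPM in the YAP-SY CCA tumors, against 8293 to 11631 CPM in the YAP-S CCA tumors. Most of this was Spp1, which averaged 3274 CPM in YAP-SY and 8489 CPM in YAP-S CCA tumors. Cd24a (-2.98), the integrin Itgb4 (-2.44) and Bicc1 (-1.53) had the smallest p among the 17 markers.

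Of 15 hepatocyte markers, 11 were higher and 0 lower, summing to 159483 to 181785 CPM in the YAP-SY CCA tumors, against 55575 to 72589 CPM in the YAP-S CCA tumors. Most of these sums was Alb, which averaged 105449 CPM in YAP-SY and 36967 CPM in YAP-S CCA tumors. Apob (1.56), Alb (1.51) and Cyp3a11 (1.54), genes of plasma proteins and drug metabolism, led the hepatocyte markers. Fibroblast markers, of which 11 of 14 were lower, summed to 565 to 757 CPM, against 2200 to 2699 CPM, led by Acta2 (-2.65), Postn (-1.81) and Pdgfrb (-1.66). The tumors labelled YAP-SY CCA thus held the highest hepatocyte and the lowest fibroblast marker sums of the 4 groups. The part of these shifts in the changes of Sox9, Sox4, Ehf and Elf3 was not tested.

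None of the 3 sums overlapped between YAP-SY and YAP-S CCA tumors. In mixed tumors 0 markers of the 3 lists were called between YAP-SY and YAP-S in edgeR, and bile duct cell markers summed to 4825 to 17338 CPM, against 10174 to 10901 CPM. These sums are mostly Spp1, which averaged 9254 CPM in YAP-SY and 9662 CPM in YAP-S mixed tumors. The mean log2 CPM over the whole list was 3.73 to 4.24 in YAP-SY and 3.42 to 4.47 in YAP-S mixed tumors. In CCA tumors the same mean was 1.96 to 3.36 in YAP-SY and 4.61 to 4.83 in YAP-S.

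Upstream and downstream genes were taken from lists. Of 13 tested YAP-TEAD targets, genes that YAP and TEAD switch on, 11 were lower and 0 higher in YAP-SY than in YAP-S CCA tumors, with a median log2 fold change of -1.51. Fstl1 (-2.50), Ptpn14 (-1.68) and Ctgf (-2.58) had the smallest p. Fibroblast markers, 11 of 14 lower and 0 higher, had a median of -1.84. Which cells the RNA of these targets came from was not tested. Of 13 genes of the Notch pathway, the signal that directs hepatoblasts toward ducts, 11 were lower and 0 higher, with a median of -1.001, led by Heyl (-1.94), Nrarp (-1.64) and Notch4 (-1.45). Heyl and Notch4 are also expressed in vessels. Among 12 tested genes of the epithelial program linked to GRHL2, 2 were higher, among them Esrp2 (0.75), and 2 lower, Epcam (-1.23) and Cdh1 (-0.76), with a median of -0.00302. That is near the shares of all tested genes, 18.3% higher and 20.8% lower, so the list did not stand apart by its counts.

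Other factors of the liver lineage split by the cell type they are known from. Of 17 tested, 6 were lower in YAP-SY CCA tumors, among them the duct factor Glis3 (-1.67), Gata6 (-1.62) and the Notch target Hey1 (-1.26). The 6 that were higher included Hnf4a (1.09) and Cebpa (1.09), which maintain hepatocyte genes. Cdh1, Hnf4a and Cebpa were named after their values were seen. In mixed tumors 0 of these 17 factors were called in edgeR.

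To see which genes varied most like each factor, log2 CPM was correlated over the 12 tumors with every named gene of at least 5 CPM on average. These values are a description, since the tumors share groups and libraries. Sox9 was nearest to Vsig10 (r = 0.980), Sox4 to Nexn (0.992), Ehf to Cdk14 (0.987) and Elf3 to Pfn2 (0.947) and the keratin Krt18 (0.941). Klf5 was nearest to Pdpn (0.957) and the keratin Krt7 (0.950). Onecut1 was nearest to the guanylate binding protein gene listed as GBP11 (0.940), Onecut2 to Camk2n1 (0.905) and Zeb1 (0.903), and Grhl2, at few counts, to Tgfa (0.855).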

How the data were processed

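RNA was sequenced from tumor nodules and cell lines with TruSeq mRNA libraries, per the labels' protocols. STAR and the mm10 genome build are named in the submitters' processing notes; the annotation release, the counting tool and the use of strand are not given in the sources used here. The authors deposited counts per gene in 2 tables, 1 of corrected counts for the tumors and 1 of raw counts for SB1. What was corrected is not given in the sources used here. In the SB1 table, 3 columns that match no sample were not used. Of the gene symbols, 27 had become dates and were looked up again by Ensembl identifier.

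Genes were filtered with filterByExpr by group, libraries were scaled by TMM, and all 12 tumors entered 1 fit of 4 groups in edgeR 4.0.16 (R 4.3.3). Contrasts were tested by the quasi-likelihood F-test with Benjamini-Hochberg adjustment over 18318 genes and a threshold of 0.05. The procedure was tested on simulated data. SB1 was scaled by TMM among its own 3 samples. Log2 values used a prior count of 1. Alternatives used limma 3.58.1 (voom) and DESeq2 1.42.0, other scalings, no filter, fewer groups and tumors left out. Intervals from depth would cover counting error only, and the fitted errors were used instead.

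The 8 factors and the gene lists were chosen with earlier results of these data known. Named are the 8 factors, up to 3 genes most like each, and members of each list with the smallest p, besides genes marked as named after their values were seen and those given for context in SB1. A few genes so named are not reported here.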

Additional observations from a re-analysis of the deposited data

Results flagged for a closer look

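The effect of YAP-SY on 2 factors differed between CCA and mixed tumors by the interaction test of edgeR. For Sox9 the difference, CCA minus mixed, was -2.12 on the log2 scale, from a fold change of -1.997 in CCA and 0.12 in mixed tumors. For Ehf it was -2.25, from -2.50 in CCA and -0.25 in mixed tumors. In both cases the YAP-SY CCA tumors had the 3 lowest values of all 12 tumors. Markers of bile duct cells, fibroblasts and hepatocytes were also called in this test, as given above.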

How the results depend on the processing

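Counts of called genes moved most between CCA and mixed tumors. For YAP-S tumors the main count was 0, and it was 117 with DESeq2 size factors, 711 with library size alone, 137 with upper quartile scaling, 1513 in DESeq2, 3609 with voom and sample weights, 570 without a filter, 2393 with the 2 groups alone, 758 in voom without a replicate block, 991 with it, and 200 without YAP-SY tumors 3 and 8. For YAP-SY tumors it was 532, and 2006 with library size alone, 1834 in DESeq2, 16 with voom weights, 859 without a filter, 0 with the 2 groups alone, 42 in voom without a block and 46 with it. The difference between histologies gave 2788, and 4330 with library size alone and 4231 in DESeq2. YAP-SY against YAP-S gave 7171 in CCA, of 3358 higher and 3813 lower, against 760 higher and 8064 lower with library size alone; in mixed tumors it gave 0, and 11 in DESeq2.

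Among the 8 factors, the difference between histologies called 2, and 4 each with library size alone, in DESeq2, with voom weights and without a filter. CCA against mixed tumors called 0 in YAP-S, and 1 in DESeq2, 4 with voom weights, 1 without a filter, 2 with the 2 groups alone, and 1 in voom with or without the replicate block. In YAP-SY it called 1, and 4 with library size alone, in DESeq2 and without a filter, but 0 with voom weights, the 2 groups alone, voom with or without the replicate block, or without YAP-SY tumors 3 and 8.

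Leaving out 1 tumor at a time gave 5121 to 6869 genes and 3 to 5 factors for YAP-SY against YAP-S in CCA, 1058 to 3077 genes and 2 to 4 factors for the difference, and 0 to 595 genes and 0 to 2 factors for CCA against mixed in YAP-SY. Signs turned with library size alone for Onecut2 (-0.0926 in CCA, -0.228 in the difference, 0.171 for CCA against mixed in YAP-S and -0.0566 in YAP-SY), Grhl2 (-0.189 in CCA) and Onecut1 (-0.202 for CCA against mixed in YAP-SY). In voom, Sox9 between mixed tumors was -0.047 with weights and -0.0617 with the block, and Grhl2 for CCA against mixed in YAP-SY was 0.595 with weights, 0.0237 without the block and 0.0905 with it. With 1 tumor left out, signs turned for uncalled values: in mixed tumors Klf5 (-0.60 to 0.55), Sox9 (-0.37 to 0.41), Sox4 (-0.175 to 0.611) and Ehf (-0.55 to 0.17); in CCA Onecut1 (-0.14 to 1.35); in the difference Onecut1 (-1.36 to 0.135) and Onecut2 (-0.00346 to 0.443); for CCA against mixed in YAP-SY Onecut1 (-0.66 to 0.40), Grhl2 (-1.04 to 0.998) and Klf5 (-1.61 to 0.52), and in YAP-S Onecut1 (-0.0192 to 1.002) and Onecut2 (-0.21 to 0.25).

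The labels do not say that tumor numbers pair tumors, so the numbers were not taken as pairing. Numbers 3, 5 and 9 occur in both models. Same-numbered tumors deviated from their group means with r of 0.18, 0.35 and 0.09, beside -0.47 to 0.29 for other pairs. The consensus correlation within the replicate block was 0.22. With only 3 same-numbered pairs, these values cannot decide whether the tumors were paired. In limma-voom with the replicate block, adjusted p was 0.0254 for Klf5 in CCA, 0.0757 for Sox9 in CCA against mixed YAP-SY tumors and 0.0192 for Grhl2 in CCA against mixed YAP-S tumors, beside 0.0334, 0.0771 and 0.0309 without the block. The causes of these changes were not tested. With 3 tumors a group, and 8 to 273 counts for Klf5 and Grhl2, differences in these 2 genes were poorly resolved.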

Other observations

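Between YAP-SY and YAP-S CCA tumors, 20.8% of all tested genes were lower and 18.3% higher. Of 25 tested relatives within the factor families, 5 were lower and 3 higher (median log2 fold change -0.37), shares no larger than those of all tested genes. The ETS factor Elf4 was lower (-2.18, adjusted p = 0.000366), as was Klf4 (-1.76, adjusted p = 0.000544), a Krüppel-like factor of differentiating epithelia, while Klf12 was higher (1.43, adjusted p = 0.000409), all in edgeR. Of 7 mesenchymal factors 3 were lower and 0 higher, namely Zeb2 (-0.66 ± 0.16), Twist2 (-5.38 ± 1.36) and Snai1 (-1.86 ± 0.64). The size of the Twist2 change was thus poorly resolved.

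Other cell types moved less evenly in the same comparison. Of 12 endothelial markers, 4 were lower and 2 higher, with Vwf (-1.62), Cdh5 (-0.43) and Emcn (-0.56) showing the smallest p. Of 9 macrophage markers 4 were lower and 3 higher, and the genes leading them were Timd4 (0.89), C1qa (-1.66) and Cd5l (0.83). Lymphocyte markers had 5 of 10 lower and 0 higher, led by Lck (-2.82), Trac (-2.35) and Cd3g (-1.73), and neutrophil markers 2 of 4 lower, Csf3r (-1.22) and Cxcr2 (-1.63), and 0 higher. For pancreas and gut epithelium, 10 of 15 markers were at 0 in YAP-SY CCA tumors, and 0 of the 4 tested members was called in edgeR.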
